A study of Danio rerio with 8 samples.

Results

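Genes for the translation factors that start, extend and end protein synthesis, and for the aminoacyl-tRNA synthetases that load tRNAs, were followed in whole zebrafish larvae mutant for nphp8, also called rpgrip1l, which encodes a protein of the base of cilia. Members were taken by gene symbol, as every eIF and eEF symbol with a number, the synthetase symbols of a single amino acid letter, EPRS1 and ETF1, with the eIF2 kinase genes left out and a mean level of at least 1 TPM. Of 98 genes with such a symbol, 92 reached that level, out of 32520 gene identifiers in the table and 16560 at that level. They comprise 58 initiation factor genes, 12 elongation factor genes, 4 genes for enzymes that modify elongation factors, 1 release factor gene and 17 synthetase genes. Classes follow the symbols. The initiation class thus holds the genes for 4E-binding proteins, which repress initiation, as well as eif4enif1, EIF4A3 and EIF1AD. The elongation class holds the eIF5A genes and EEF1E1, for a scaffold of a synthetase complex. The member closest above the limit was an EEF1A1 copy (ENSDARG00000039502) at 1.93 TPM, and the closest below it was another EEF1A1 copy (ENSDARG00000069951) at 0.7225 TPM. The other 5 below it were eef2a.2 at 0.621 TPM, EIF4E1B, a copy of EIF3B (ENSDARG00000074213), eef1a1l3 and eef1a2.

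RNA was sequenced from untreated whole larvae at 2 days of age, with 4 libraries per group. The mutants carried nphp8(sa24730) on both chromosomes and came from mutant mothers (maternal zygotic). The controls carry the genotype label WT, whereas the series design describes them as siblings. Controls that are WT would have had other mothers, and genotype could then not be told apart from mother or clutch. Nothing states how many larvae or clutches entered a library, so the p-values below rest on the spread among these 8 libraries, and that spread may be technical.

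Protein synthesis begins when eIF2 brings the initiator tRNA to the small ribosomal subunit, helped by eIF1, eIF1A and the large eIF3 complex, and when the eIF4F complex of eIF4E, eIF4A and eIF4G binds the mRNA cap. The 4E-binding proteins hold eIF4E away from eIF4G until the kinase mTORC1 phosphorylates them, and eIF2B recharges eIF2 with GTP. In elongation eEF1A delivers loaded tRNAs and eEF2 moves the ribosome along, and each synthetase attaches an amino acid to its own tRNAs. In bony fishes many of these genes exist as duplicated copies, a remnant of a genome duplication.

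The values are TPM, which keep no depth, and the number of reads is not known. Between 23637 and 23964 genes were above 0 in a library. The mutated gene, listed as RPGRIP1L (ENSDARG00000051754), stood at 2.75, 2.60, 2.26 and 2.17 TPM in the 4 controls and at 0.75, 0.72, 0.77 and 0.78 TPM in the 4 mutants, and its groups did not overlap (limma adjusted p = 2.47e-05). Marker genes of every tissue looked for reached 1 TPM: 11 of 11 for skeletal muscle, 10 of 11 for neurons, 7 of 7 for red blood cells, 6 of 6 for lens, 6 of 8 for liver and yolk, and 5 of 5 for skin. In RNA of whole larvae, fewer cells of a type and less RNA per cell cannot be told apart.

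The levels of these genes were close in both groups, with few increases and more small decreases. Of the 92 members, 5 rose and 22 fell in the mutants (limma adjusted p under 0.05), which is 29.3% against 22.6% of all genes tested. The 5 higher members are 5.43%, against 9.32% of all genes, and the 22 lower members are 23.9%, against 13.3% of all genes. Abundant genes were called more often: among genes of at least 10 TPM, 31.8% were called, 12.2% higher and 19.6% lower, against 32.1% of the 84 members at that level, 5.95% higher and 26.2% lower. The median log2 change was -0.04 over the members, -0.01 over all genes tested and -0.03 over all genes of at least 10 TPM. No member moved by as much as 0.5 on the log2 scale, whereas 599 genes of the whole table did, and the median absolute change was 0.0756 for members and 0.106 for all genes. The mutant libraries lay wholly above the controls for 7 members and wholly below them for 22, against 11.3% and 14.8% of all genes (26.1% in either direction). Among genes of at least 10 TPM these shares were 13.8% and 20.8% (34.6% in either direction).

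Increases made up 18.5% of the members' calls as deposited, 29.6% (8 higher, 19 lower) after median-of-ratios rescaling and 37.0% (10 higher, 17 lower) after rescaling that leaves out mitochondrial genes and the top 50 by level. The same share over all genes was 41.2%, 48.5% and 50.7%. The 5 increases became 3 without control replicate 2, without mutant replicate 2 or without mutant replicate 4. The calls of 16 members, 3 higher and 13 lower, held under every other setting tried in which they had been tested.

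**Figure D1:**
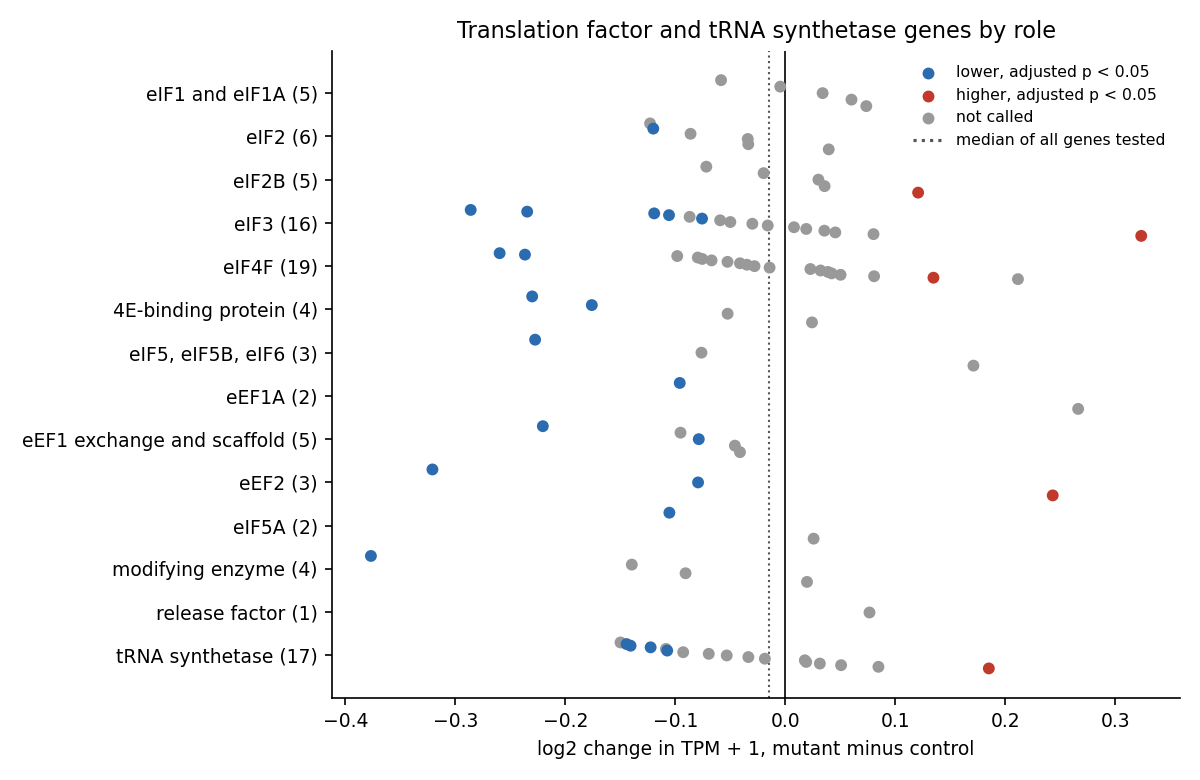
Each point is a member gene, placed by its log2 change in TPM + 1 (mutant minus control, horizontal axis) in the row of its role, with the number of genes in brackets, and coloured by its limma call. All points lie between -0.38 and 0.32, with 22 lower and 5 higher calls, and the dotted line marks the median of all genes tested, -0.01.

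Summed over all 92 members, these transcripts took 2.67% to 2.71% of the TPM of a control library and 2.55% to 2.61% of a mutant library. The sum was 26749, 26655, 27105 and 26894 TPM in the controls, given here and below in the order of replicates 1 to 4, and 25515, 25571, 25781 and 26052 TPM in the mutants. The groups did not overlap. A single gene, eef1a1l1, held 36.2% to 36.7% of the sum in controls and 35.2% to 35.8% in mutants, and without it the ratio of the group means was 0.971 in place of 0.958. By class the ratio was 0.947 for elongation factors, 0.980 for initiation factors and 0.971 for synthetases. TPM are shares of a library, and the summed TPM of 11 skeletal muscle marker genes was 23871 to 24603 in controls and 28926 to 29558 in mutants, all 11 of them higher. The summed TPM of 7 red blood cell markers lay between 5005 and 5142 in controls and between 8637 and 9017 in mutants. The part of these increases in the members' lower shares was not tested beyond the 2 rescalings above.

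**Figure D2:**
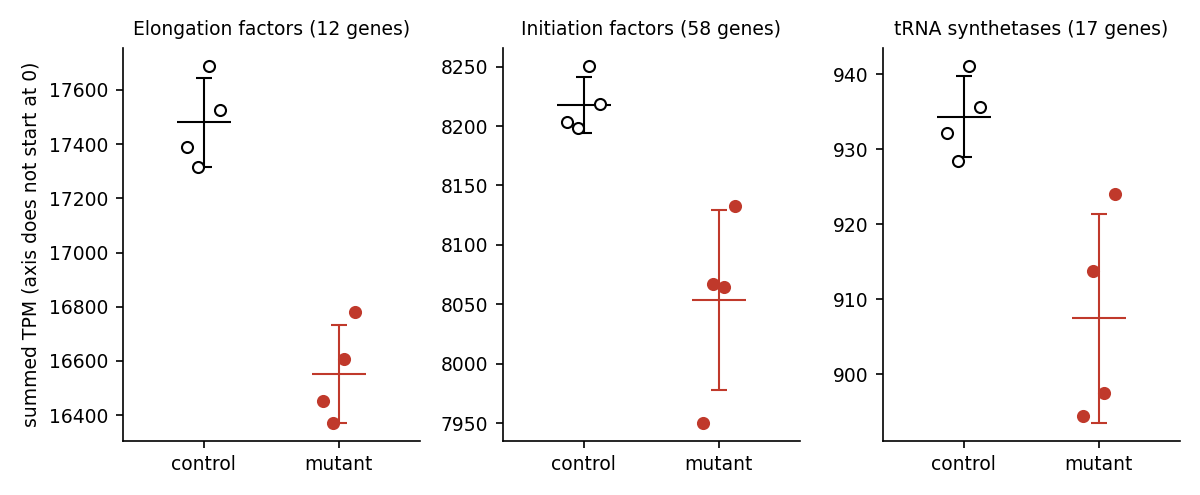
Summed TPM of the members of 3 classes in each library (points), with the mean and SD of 4 libraries per group (lines), on axes that do not start at 0. The mutant libraries lie below the controls in each class, at 16372 to 16782 against 17315 to 17689 TPM for the elongation factors.

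The genes for initiator tRNA delivery stayed near their control level. Of 6 genes with an eIF2 symbol (EIF2A and EIF2D included, eIF2B apart), 1 fell and 0 rose (limma, with 0 higher and 2 lower at an unadjusted p under 0.05). The 1 that fell was EIF2A, and no gene for an eIF2 subunit was called. The median log2 change of the 6 was -0.06. Over all genes 13.3% fell and 9.32% rose, and 19.6% and 12.2% of those of at least 10 TPM. The larger EIF2S1 copy, for the α subunit that stress kinases phosphorylate, had a mean of 239.9 ± 6.74 TPM in controls and of 234.2 ± 2.64 TPM in mutants (SD, n = 4 each; ENSDARG00000052178), and its smaller copy (ENSDARG00000005827) at 65.4 ± 1.72 and 63.8 ± 1.32 TPM. The β subunit gene EIF2S2 had a ratio of 0.942 and missed the threshold (limma adjusted p = 0.0512), and it passed without mutant replicate 4 (0.0172) or when genes under 5 TPM were left out (0.0405). The γ subunit gene EIF2S3B had a ratio of 1.03. EIF2A, a separate factor that can also bring initiator tRNA, fell from 50.2 ± 1.09 to 46.1 ± 1.05 TPM (SD, n = 4 each) without overlap of the groups. EIF2D, for a factor of non-canonical initiation and ribosome recycling, was scattered in both groups, from 14.2 to 19.7 TPM in controls and from 14.8 to 19.7 TPM in mutants.

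Of the 5 subunit genes of eIF2B, the exchange factor of eIF2, 1 rose and 0 fell (limma, with 1 higher and 0 lower at an unadjusted p under 0.05). Over all genes 9.32% rose and 13.3% fell, and 12.2% and 19.6% of those of at least 10 TPM. EIF2B1, for the regulatory α subunit, stood at 48.7, 47.0, 44.4 and 47.7 TPM in controls and at 50.4, 51.0, 50.6 and 52.3 TPM in mutants. Every mutant library was above every control, and the ratio of means was 1.09 (limma adjusted p = 0.0271). That call was lost without control replicate 2, control replicate 3, mutant replicate 2 or mutant replicate 4, with limma adjusted p-values of 0.0529 to 0.0684. EIF2B2, for the β subunit, had a ratio of 0.950, and the remaining 3 had ratios of 0.987 to 1.03.

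None of the 5 genes with an eIF1 symbol (eIF1A genes and EIF1AD included) passed the test (limma, with 1 higher and 0 lower at an unadjusted p under 0.05). Over all genes 22.6% were called, and 31.8% of those of at least 10 TPM. EIF1, for the factor that guards start codon choice, had a mean of 426.3 ± 5.59 TPM in controls and of 444.5 ± 9.08 TPM in mutants (SD, n = 4 each), with a limma adjusted p = 0.0688 that became 0.0466 without mutant replicate 1 and 0.0221 with rescaling that leaves out mitochondrial and the most abundant genes. Its relative EIF1B had a ratio of 1.05 and overlapping groups.

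The eIF3 complex coats the small subunit and recruits mRNA. Of its 16 genes 5 fell, 1 rose and 10 did not pass, where 13.3% of all genes fell and 9.32% rose, and 19.6% and 12.2% of those of at least 10 TPM. The median log2 change was -0.04, against -0.01 for all genes and -0.03 for those of at least 10 TPM. The only increase and the largest decrease were those of the copies of a single subunit. The strongest change belonged to the loosely bound j subunit, which also acts when ribosomes are recycled. Its copy EIF3J (ENSDARG00000012603) stood at 71.0, 71.8, 68.9 and 71.2 TPM in controls and at 83.4, 94.5, 92.3 and 85.4 TPM in mutants. The mutants were all above the controls, and the log2 change of 0.32 (SE 0.0408, limma adjusted p = 0.000417) was the largest increase of any member.

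The other EIF3J copy (ENSDARG00000053370) stood at 46.2, 41.5, 42.2 and 40.3 TPM in controls and at 31.9, 36.1, 36.4 and 34.4 TPM in mutants. It was lower in all 4 mutants, by a log2 change of -0.29 (SE 0.0523, limma adjusted p = 0.00374). The sum of both copies was thus made up differently in the groups, with 1.54 to 1.77 units of the first copy per unit of the second in controls and 2.49 to 2.62 in mutants.

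EIF3K, for a small peripheral subunit, stood at 311.7, 320.7, 324.6 and 311.8 TPM in controls and at 262.7, 263.8, 271.2 and 280.2 TPM in mutants. Its groups did not overlap and it fell by 0.23 on the log2 scale (SE 0.0265, limma adjusted p = 0.000207). EIF3L, whose product pairs with that of EIF3K in the complex, had a ratio of 1.03 and did not pass (limma adjusted p = 0.134), although its mutant libraries, at 170.4 to 172.1 TPM, lay above its controls, at 163.1 to 168.0 TPM. It passed under the rescaling without the most abundant genes (0.0345).

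The genes EIF3M, EIF3G and EIF3H (ENSDARG00000102452) fell by 0.12, by 0.11 and by 0.08 on the log2 scale, with groups that did not overlap. EIF3G lost its call without a mean-variance trend in the fit (limma adjusted p = 0.0637). EIF3H lost its call without mutant replicate 1 or mutant replicate 3 (limma adjusted p = 0.0523 and 0.0524) and under both rescalings (0.0714 and 0.0827). The scaffold subunits EIF3A, EIF3B and EIF3D had ratios of 1.01, 0.989 and 1.01. EIF3F and eif3ea, the most abundant eIF3 genes, had ratios of 0.979 and 0.960 with overlapping groups. The c subunit gene, listed as EIF3CL, had a ratio of 1.06 and missed the threshold as deposited (limma adjusted p = 0.067), passing as higher under either rescaling (0.0272 and 0.0218).

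**Figure D3:**
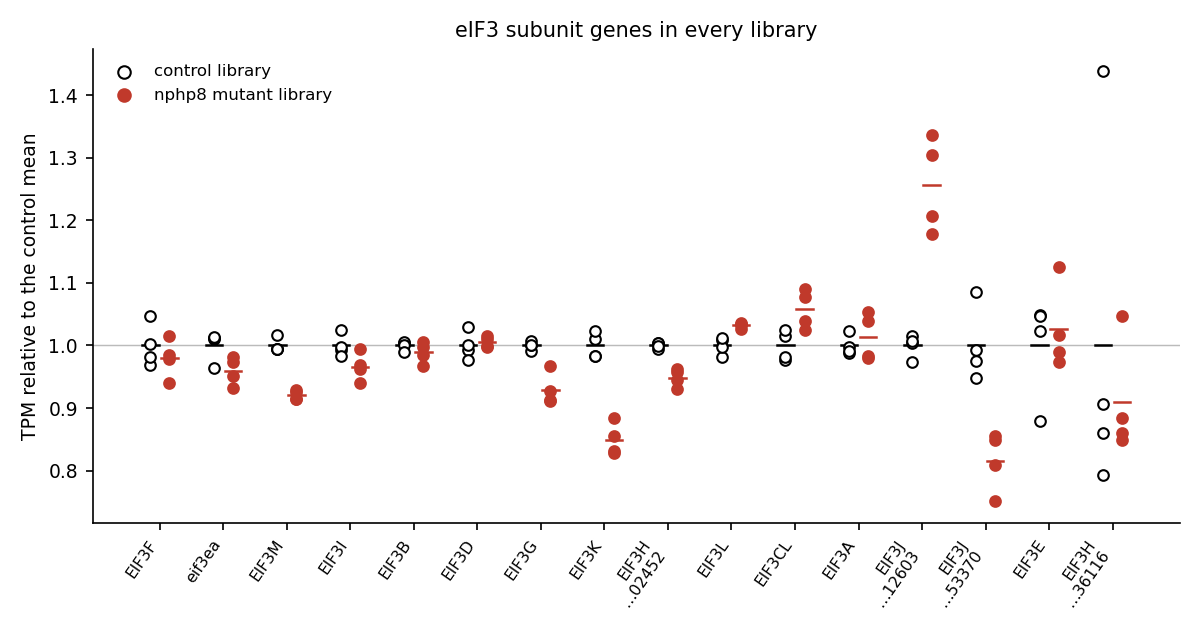
TPM of each eIF3 gene in every library, divided by the control mean of that gene (vertical axis), with genes ordered by mean level and the last digits of the identifier given where 2 genes share a symbol. The EIF3J copies lie apart from 1 in opposite directions, at ratios of means of 1.26 and 0.816, and the rare EIF3H copy is the most scattered.

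Among the 19 genes of the cap-binding complex and its partners (EIF4A3 included by its symbol), 1 rose and 2 fell, and the median was -0.03 on the log2 scale. Over all genes 9.32% rose and 13.3% fell, and 12.2% and 19.6% of those of at least 10 TPM. The cap-binding protein eIF4E is encoded by several copies. eif4eb stood at 23.2, 23.5, 23.99 and 23.4 TPM in controls and at 19.5, 21.3, 19.1 and 19.5 TPM in mutants, and it fell in all 4 mutants by 0.24 on the log2 scale (SE 0.0393, limma adjusted p = 0.00221). The copy listed as EIF4E had 40.3 ± 1.42 TPM in controls and 39.9 ± 0.979 TPM in mutants (SD, n = 4 each).

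The most abundant copy, eif4e1c, stood at 107.0, 120.4, 112.8 and 115.7 TPM in controls and at 135.2, 139.4, 112.9 and 142.7 TPM in mutants. Mutant replicate 3 lay among the controls and the other three above them, and the log2 change of 0.21 missed the threshold (limma adjusted p = 0.0509). Without mutant replicate 3 it passed (limma adjusted p = 0.00185), as it did under either rescaling and when genes under 5 TPM were left out (0.0340 to 0.0367).

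The helicase genes eif4a1a and eif4a1b, the most abundant of the complex, had ratios of 0.964 and 1.02 with overlapping groups. eif4ba, a copy of the gene for the helicase cofactor eIF4B, fell from 26.01 ± 1.82 to 21.6 ± 1.67 TPM (SD, n = 4 each), without overlap (limma adjusted p = 0.0166). The more abundant EIF4B had a ratio of 0.954 and groups that did not overlap, and passed only without mutant replicate 4 (limma adjusted p = 0.063 with all libraries and 0.0437 without it).

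An EIF4G2 copy (ENSDARG00000057167), for an eIF4G relative that lacks the eIF4E-binding part, stood at 117.4, 112.1, 122.3 and 120.8 TPM in controls and at 122.5, 136.9, 129.6 and 130.3 TPM in mutants. The lowest mutant lay just above the highest control, and the log2 change was 0.13 (limma adjusted p = 0.0312). This call was lost without control replicates 1 or 2 or mutant replicates 2, 3 or 4 (limma adjusted p-values of 0.0626 to 0.0756). The other EIF4G2 copy (ENSDARG00000020377) had a ratio of 1.03 and overlapping groups (limma adjusted p = 0.319). The scaffold gene EIF4G1 had a ratio of 1.06 and overlapping groups.

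The 4E-binding protein genes, whose products repress cap-dependent initiation, fell in part. Of 4 genes, 2 fell and 0 rose (limma, with 2 lower and 0 higher at an unadjusted p under 0.05). Over all genes 13.3% fell and 9.32% rose, and 19.6% and 12.2% of those of at least 10 TPM. EIF4EBP3 (ENSDARG00000041607) stood at 51.0, 50.5, 51.1 and 51.5 TPM in controls and at 43.5, 43.5, 44.8 and 41.5 TPM in mutants. The groups were well apart, and it fell by 0.23 on the log2 scale (SE 0.0296, limma adjusted p = 0.000474). The most abundant gene, eif4ebp1, fell from 142.8 ± 7.36 to 126.4 ± 8.59 TPM (SD, n = 4 each). Its groups overlapped in mutant replicate 4, at 137.1 TPM, and control replicate 4, at 134.1 TPM. Its call (limma adjusted p = 0.0341) was lost without control replicates 1, 2 or 3 or mutant replicates 1, 2 or 3 (0.0602 to 0.0833), and under the rescaling without the most abundant genes (0.0594). EIF4EBP2 had a ratio of 1.02 and eif4ebp3 (ENSDARG00000054916), the rarest, one of 0.957, with overlapping groups for each.

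EIF6 keeps the large ribosomal subunit from joining too early and takes part in its assembly. It stood at 94.3, 92.4, 89.0 and 94.2 TPM in controls and at 77.3, 77.9, 78.5 and 81.6 TPM in mutants. Every mutant was below every control, by a log2 change of -0.23 (SE 0.0288, limma adjusted p = 0.000429). EIF5, which triggers GTP hydrolysis on eIF2, had a ratio of 0.948 and missed the threshold (limma adjusted p = 0.0503), passing without mutant replicate 4 (0.0444) or when genes under 5 TPM were left out (0.0418). The subunit-joining factor gene eif5b had a ratio of 1.13 (limma adjusted p = 0.0995) and passed without mutant replicate 3 alone (0.0354).

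The elongation factor genes ran from 1.93 TPM to the most abundant member, at 9456 TPM, and their called decreases had ratios of 0.786 to 0.947. Of 12 genes 6 fell and 1 rose. Over all genes 13.3% fell and 9.32% rose, and 19.6% and 12.2% of those of at least 10 TPM. The median level of the class was 376 TPM, and calls were more frequent among abundant genes, so neither set of shares is a like comparison. The median log2 change was -0.08. Without control replicate 1, control replicate 3 or mutant replicate 1 the count of lower genes was 3 in each case. It was 4 after median-of-ratios rescaling and 3 after rescaling without mitochondrial and the most abundant genes. The chief eEF1A gene, eef1a1l1, stood at 9675, 9774, 9888 and 9744 TPM in controls and at 9062, 9011, 9179 and 9316 TPM in mutants. Its groups did not overlap, and the ratio of means was 0.936 (log2 change -0.10, SE 0.0168, limma adjusted p = 0.00294). Without a mean-variance trend in the fit this call was lost (0.065). Reads of near-identical eEF1A copies are divided by an estimate, so values of the rare copies are uncertain. The only other copy above 1 TPM, EEF1A1 (ENSDARG00000039502), had 1.67 ± 0.329 TPM in controls and 2.20 ± 0.279 TPM in mutants (SD, n = 4 each) and did not pass (limma adjusted p = 0.104).

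The 5 genes for the eEF1 exchange complex and its relatives all had log2 changes below 0, from -0.22 to -0.04. Of these 2 fell, where 13.3% of all genes and 19.6% of those of at least 10 TPM fell. EEF1E1, whose product is a scaffold of the multisynthetase complex, stood at 72.2, 79.8, 78.6 and 78.0 TPM in controls and at 68.2, 69.1, 63.3 and 63.8 TPM in mutants. All 4 mutants were below the controls (log2 change -0.22, limma adjusted p = 0.00432). eef1da, for the δ subunit, had a ratio of 0.947 (limma adjusted p = 0.0446), and its call was lost without any of the libraries except mutant replicate 3 (0.0589 to 0.113) and under both rescalings (0.169 and 0.165). EEF1G, for the γ subunit, had a ratio of 0.969. EEF1B2, for the exchange subunit β, had a ratio of 0.934 and did not pass (limma adjusted p = 0.193). Its control replicate 2, at 1291 TPM, lay far below the other controls at 1498 to 1528 TPM. Without that library it was lower in the mutants (limma adjusted p = 0.000998).

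The eEF2 genes differed in direction. The main gene, eef2b, had 2301 ± 60.6 TPM in controls and 2178 ± 43.6 TPM in mutants (SD, n = 4 each; limma adjusted p = 0.0365), with overlapping groups. This call was lost without control replicates 1, 3 or 4 or mutant replicates 1, 2 or 3 (0.0641 to 0.0989) and under both rescalings (0.133 and 0.126). The gene listed as EEF2 (ENSDARG00000035256) stood at 44.3, 47.1, 43.7 and 46.0 TPM in controls and at 53.4, 54.7, 53.5 and 53.4 TPM in mutants. All mutants were higher, by a log2 change of 0.24 (SE 0.0307, limma adjusted p = 0.000422). The copy eef2a.1 stood at 17.2, 20.8, 16.2 and 16.6 TPM in controls and at 14.3, 14.2, 13.6 and 13.6 TPM in mutants. All mutants were lower, and the log2 change was -0.32 (SE 0.0706, limma adjusted p = 0.00984).

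eIF5A, named as an initiation factor, helps ribosomes past stretches that are hard to translate and in termination. Its main gene eif5a had 1322 ± 26.4 TPM in controls and 1346 ± 7.70 TPM in mutants (SD, n = 4 each; limma adjusted p = 0.366). EIF5A2 had a ratio of 0.930 with overlapping groups (limma adjusted p = 0.041), and its call was lost without control replicates 1, 2 or 3 or mutant replicates 1, 3 or 4 (0.0732 to 0.105), and under the rescaling without the most abundant genes (0.0872).

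The largest decrease of all members was in a gene for an enzyme that methylates eEF1A. EEF1AKMT1 stood at 24.3, 23.9, 24.5 and 23.7 TPM in controls and at 18.4, 17.9, 18.3 and 18.7 TPM in mutants. The groups were far apart against a spread of 0.381 and 0.335 TPM (SD, n = 4 each), and the gene fell by 0.38 on the log2 scale (SE 0.0318, limma adjusted p = 2.97e-05). The related EEF1AKMT2 and EEF1AKMT4 had ratios of 1.02 and 0.878 at levels of 4.60 and 3.04 TPM, with overlapping groups. EEF2K, for the kinase that inhibits eEF2, had a ratio of 0.938 (limma adjusted p = 0.0723) and passed without control replicate 4 (0.0462). The release factor gene ETF1, whose product reads stop codons, had 124.6 ± 5.66 TPM in controls and 131.4 ± 4.05 TPM in mutants (SD, n = 4 each; limma adjusted p = 0.165).

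Of the 17 tRNA synthetase genes, 4 fell, 1 rose and 12 did not pass, with a median log2 change of -0.05. The lower share was 23.5%, against 13.3% of all genes and 19.6% of those of at least 10 TPM. The higher share was 5.88%, against 9.32% and 12.2%. All changes lay between -0.15 and 0.18 on the log2 scale. CARS1, for cysteine, stood at 18.4, 20.1, 18.7 and 18.3 TPM in controls and at 21.3, 21.7, 21.4 and 21.9 TPM in mutants. Every mutant was above every control, and the ratio was 1.14 (log2 change 0.18, SE 0.0384, limma adjusted p = 0.00735).

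KARS1, for lysine and the most abundant of the class, stood at 145.3, 140.1, 148.6 and 145.9 TPM in controls and at 128.5, 129.1, 134.1 and 132.6 TPM in mutants. All mutants were lower, and the ratio was 0.904 (log2 change -0.14, SE 0.0262, limma adjusted p = 0.0036). The genes for leucine (LARS1), arginine (RARS1) and alanine (AARS1) had ratios of 0.902, 0.917 and 0.927, with limma adjusted p-values of 0.0174, 0.0115 and 0.00986, and none of their groups overlapped. EPRS1, whose protein joins the glutamate and proline enzymes in a single chain, lay at 31.8 to 34.4 TPM in controls and at 34.8 to 35.6 TPM in mutants. These groups did not overlap, but it missed the threshold (limma adjusted p = 0.0838) and passed after each rescaling (0.0467 and 0.0332).

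SARS1, for serine, lay at 107.2 to 108.5 TPM in controls and at 101.6 to 106.7 TPM in mutants and did not pass (limma adjusted p = 0.131). WARS1, for tryptophan, had the lowest ratio of the class, 0.892, with overlapping groups and a large error (SE 0.0823, limma adjusted p = 0.226). VARS1, MARS1 and YARS1, for valine, methionine and tyrosine, had ratios of 0.924, 0.934 and 0.952, and MARS1 passed without control replicate 1 alone (limma adjusted p = 0.0396). The genes for glycine (GARS1), isoleucine (IARS1), asparagine (NARS1), glutamine (QARS1) and threonine (TARS1) had ratios of 0.977 to 1.02 with overlapping groups. The symbols lars1a, tars3, HARS2, FARSA and FARSB fall outside the rule for members. FARSA and FARSB, for phenylalanine, had ratios of 1.02 and 0.971 and did not pass. lars1a, a further leucine gene, had a ratio of 0.992 and did not pass (limma adjusted p = 0.892), and tars3, for a relative of TARS1, rose from 7.58 ± 0.519 to 9.04 ± 0.463 TPM (SD, n = 4 each; limma adjusted p = 0.0188).

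The enzymes bound in the multisynthetase complex, a particle that holds several synthetases together, made up 8 of the 17. Of these 3 fell (KARS1, LARS1 and RARS1) and 0 rose (limma, with 4 lower and 1 higher at an unadjusted p under 0.05), while of the 9 outside it 1 fell (AARS1) and 1 rose (CARS1). This split was made after the values were seen, and the median log2 changes were close, -0.056 inside the complex and -0.053 outside it. Over all genes 13.3% fell and 9.32% rose, and 19.6% and 12.2% of those of at least 10 TPM. Both genes for the scaffold AIMP1 fell, from 80.3 ± 0.973 to 75.0 ± 2.21 TPM (ENSDARG00000036894) and from 121.2 ± 3.69 to 111.5 ± 3.14 TPM (ENSDARG00000060036; SD, n = 4 each), with limma adjusted p-values of 0.0275 and 0.0185. Another scaffold gene, AIMP2, had a ratio of 0.955 and did not pass (limma adjusted p = 0.262).

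**Figure D4:**
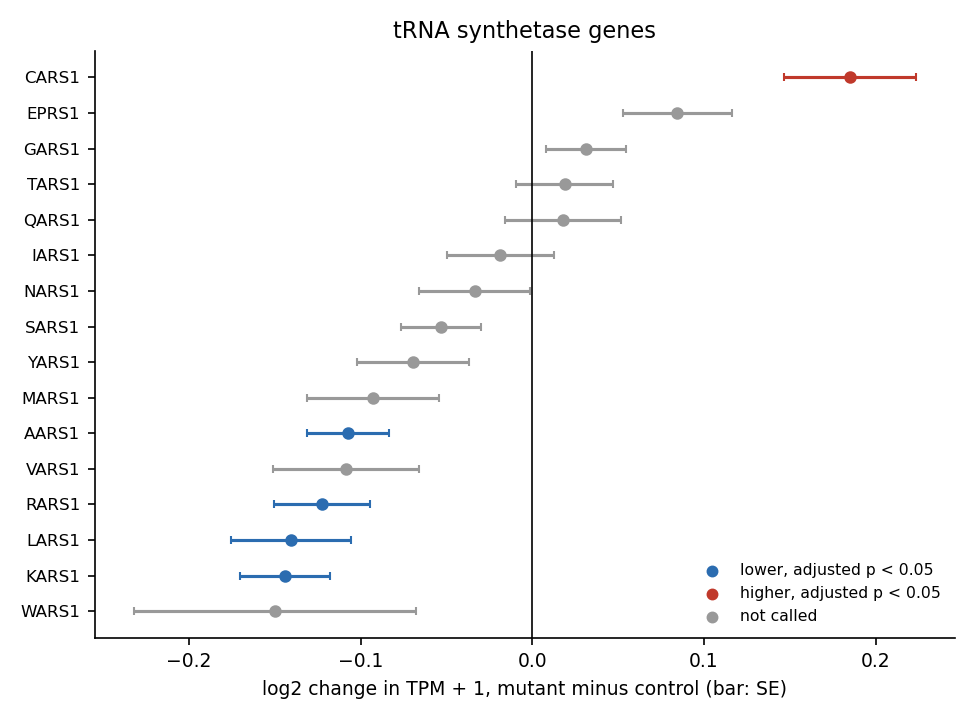
Log2 change in TPM + 1 (mutant minus control, horizontal axis) of each tRNA synthetase gene described above, with its SE from the limma fit, ordered by size and coloured by call. KARS1, LARS1, RARS1 and AARS1 are lower and CARS1 is higher, and WARS1 has the widest error, 0.0823.

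Related gene copies were set against each other within each library, since their ratio is nearly free of the scaling of the library. In 17 families of 2 or 3 members 21 pairs were compared by a two-sided exact permutation test of the difference in log2 change, whose smallest p over 70 assignments is 0.0286. That p was reached by 10 pairs and became 0.06 after Benjamini-Hochberg adjustment over the 21 pairs, so 0 pairs passed. With that smallest p no pair could pass by itself, so the outcome decides nothing about single pairs. The families were chosen after the values were seen, and how many pairs of other genes reach that p was not tested. Among single genes of at least 10 TPM, 34.6% had groups that did not overlap. The ranges that follow are descriptions. In 3 pairs the copies were called in opposite directions: the EIF3J pair, with a difference of 0.61 on the log2 scale, EEF2 and eef2a.1, with 0.56, and eef2b and EEF2, with -0.32.

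The ratio of EEF2 to eef2a.1 ran from 2.26 to 2.78 in controls and from 3.74 to 3.94 in mutants. The ratio of eif4e1c to eif4eb ran from 4.61 to 5.12 in controls and from 5.91 to 7.32 in mutants, and that of EIF4E to eif4eb from 1.601 to 1.80 and from 1.90 to 2.15. The ratio of eif5a to EIF5A2 ran from 5.10 to 5.28 in controls and from 5.41 to 5.94 in mutants. The smallest differences were those of the EIF2S1 and eIF3h copies and of EIF1 and EIF1B. The EIF2S1 copies differed in log2 change by -0.0005 (exact permutation p = 1.0), and EIF1 and EIF1B by -0.01 (exact permutation p = 0.6).

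**Figure D5:**
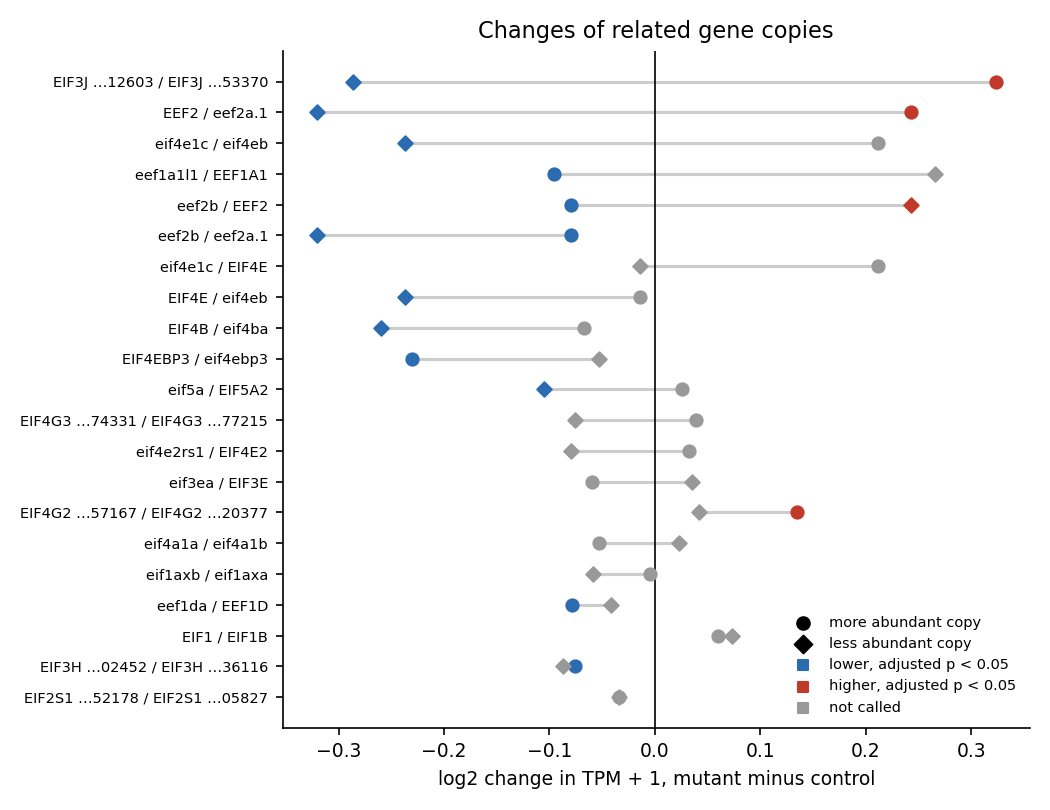
Log2 change in TPM + 1 (mutant minus control, horizontal axis) of both genes of each of 21 pairs of related copies, joined by a line, with the more abundant copy as a circle and the other as a diamond. Pairs are ordered by the difference, which is largest for the EIF3J copies (0.61) and smallest for the EIF2S1 copies.

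Other genes of the translation pathway were compared through 11 lists. Outside the ATF4 list, 0 of 103 genes tested rose and 19 fell (limma, with 6 higher and 33 lower at an unadjusted p under 0.05). The lower share was 18.4%, against 13.3% of all genes and 19.6% of those of at least 10 TPM. Of all genes 9.32% rose, and 12.2% of those of at least 10 TPM. The median log2 change of the 103 genes was -0.06. The ATF4 list, the only one of the 11 with higher calls, was left out of this count. It held 6 higher and 6 lower calls among 20 genes. The 0 higher calls among the 103 genes thus follow from leaving that list out. Setting them against all genes decides nothing. The regulators of eIF2 phosphorylation had the lowest median log2 change of the 11 lists, -0.37, with 4 of 7 lower and 0 higher (limma, with 4 lower and 0 higher at an unadjusted p under 0.05). Their lower share was 57.1%, against 13.3% of all genes and 19.6% of those of at least 10 TPM. EIF2AK3, for the eIF2 kinase PERK of the endoplasmic reticulum, fell from 12.6 ± 0.742 to 9.30 ± 0.461 TPM (SD, n = 4 each; limma adjusted p = 0.000643). The genes for the PERK inhibitor P58IPK, dnajc3a and dnajc3b, had ratios of 0.643 and 0.740, and ppp1r15a, for a subunit that directs a phosphatase to eIF2, had a ratio of 0.759. The eIF2 kinase genes EIF2AK4 (GCN2) and eif2ak1 (HRI) had ratios of 1.04 and 0.985 and did not pass.

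The ATF4 and amino acid response list, which holds genes induced when eIF2 is phosphorylated, was divided. Increases were called for 6 of its 20 genes and decreases for 6, and the median was 0.02 on the log2 scale. The shares over all genes were 9.32% higher and 13.3% lower, and 12.2% and 19.6% among those of at least 10 TPM. Of the copies of the ATF4 gene itself, atf4b had a ratio of 1.15 (limma adjusted p = 0.000907) and atf4a, which did not pass, one of 0.989. nupr1b and CHAC1, the latter for an enzyme that degrades glutathione, rose 1.27-fold and 1.23-fold, whereas nupr1a fell to a ratio of 0.887. DDIT4, for an inhibitor of mTORC1, fell from 25.96 ± 1.53 to 17.7 ± 0.807 TPM (SD, n = 4 each; limma adjusted p = 6.78e-05), and DDIT3, for the stress factor CHOP, had a ratio of 0.832. The asparagine synthetase gene ASNS, a common target of ATF4, had 19.4 TPM in either group.

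In the mTORC1 list 6 of 20 genes fell and 0 rose (limma, with 8 lower and 0 higher at an unadjusted p under 0.05), which is 30.0% lower against 13.3% of all genes and 19.6% of those of at least 10 TPM. LAMTOR5 and rragca, for the Ragulator and Rag proteins that bring mTORC1 to lysosomes, had ratios of 0.800 and 0.864, akt1s1, for the inhibitor PRAS40, one of 0.847, and rhebl1, for a Rheb-like GTPase, one of 0.874. MTOR and RPTOR, for the kinase and its partner, had ratios of 1.07 and 0.939 and did not pass.

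Mitochondria have their own set of such genes. Of 16 synthetase genes with mitochondrial-type symbols 1 fell and 0 rose, and of 12 mitochondrial translation factor genes 1 fell and 0 rose (limma, with 5 and 2 lower and 0 and 1 higher at an unadjusted p under 0.05). Among the 16 was HARS2, at a mean of 112.4 TPM in controls and 115.7 TPM in mutants, far above the others. No member carries a histidine symbol, and whether HARS2 stands for the enzyme of the cytosol was not tested. The lower shares were 6.25% and 8.33%, against 13.3% of all genes, where 9.32% rose. Most of these synthetase genes lay below 10 TPM, and calls were more frequent among abundant genes, so for them the share of all genes is not a like comparison. The translation factor genes lay on both sides of 10 TPM, and among all genes of at least 10 TPM 19.6% fell and 12.2% rose. EARS2, for glutamate, fell from 7.39 ± 0.437 to 5.76 ± 0.220 TPM (SD, n = 4 each; limma adjusted p = 0.00301), and the rescue factor gene MTRES1 had a ratio of 0.886. Of the 9 tested genes for enzymes that modify eIF5A and eEF2, DPH5 of diphthamide synthesis alone passed, with a ratio of 0.816. That is 11.1% lower, against 13.3% of all genes. The poly(A)-binding gene pabpc1a had a ratio of 0.940, and the ribosome rescue gene PELO and the reinitiation gene DENR had ratios of 0.884 and 0.884. An MKNK2 copy (ENSDARG00000015164), for a kinase that phosphorylates eIF4E, fell to a ratio of 0.821, and the rarer copy (ENSDARG00000011373) had one of 0.947 and did not pass. None of the 5 selenocysteine genes passed (limma, with 0 at an unadjusted p under 0.05), where 22.6% of all genes were called.

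Tissue markers also moved between the groups. Of the genes tested, all 11 of skeletal muscle, all 6 of lens, 5 of 7 of red blood cells, 6 of 10 of neurons and 3 of 6 of liver and yolk rose. Over all genes 9.32% rose and 13.3% fell, and 12.2% and 19.6% of those of at least 10 TPM. Of 5 skin markers 2 fell, cyt1 to a ratio of 0.851 and epcam to 0.729, and 1 rose. Of the lists that rose, the red blood cell list alone held a lower call, of 1 gene. The part of these shifts in the members' changes was not tested.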

How the data were processed

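The submitters' processing notes name STAR 2.7.3a, RSEM 1.3.1 and the build GRCz11 for the 8 libraries. The authors deposited TPM per Ensembl gene to 2 decimals. TPM keep no read numbers, so no depth or counting interval is given. RSEM divides reads among near-identical copies by an estimate, so copies are uncertain. Overlapping genes are too, since no source used here gives the strand setting.

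Symbols came from a table pairing identifiers with names (29201 of 32520 matched), many human-style and shared by copies. Groups were compared with limma 3.58.1 under R 4.3.3 (lmFit and eBayes with trend, two-sided) on log2(TPM + 1), over 16560 genes of at least 1 TPM, with Benjamini-Hochberg adjustment over all of them and a call at 0.05. Log2 changes are on the log2(TPM + 1) scale, and folds are ratios of mean TPM. The fit was tested on simulated data. Python 3.11.15, pandas 2.3.3 and matplotlib 3.10.9 made tables and plots.

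Members and lists were chosen with earlier results of these data known. Named by rule were every synthetase (1 is counted but not reported here), eIF2, 4E-binding protein, eEF1A and eEF2 gene, the 2 most abundant of every other role, up to 12 called members in each direction by size, and up to 4 called genes of each list. Other genes named (such as EIF3M, EIF3G, EIF3H, EIF3L, EIF3CL, EIF3A, EIF3B, EIF3D, eef1da, eif4e1c, EIF4E, EIF4B, EIF4G1, eif5b, EEF1AKMT2, EEF1AKMT4, ASNS, nupr1a, atf4a, atf4b, lars1a, tars3, AIMP2, MTOR and RPTOR) and the families of copies were chosen after their values were seen. Pairing by replicate number was checked by the correlation of deviations from group means.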

Additional observations from a re-analysis of the deposited data

Results flagged for a closer look

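In 8 of 114 groups of 4 libraries examined, 1 library stood far from the other three relative to the range of its group, and chance alone gives such a gap in about 1 of 20 groups. The lowest control was set apart for EEF1B2 (replicate 2, 1290.57 TPM), EIF2D (replicate 3, 14.21 TPM), eif3ea (replicate 1, 406.65 TPM) and SARS1 (replicate 3, 107.17 TPM). The highest mutant was set apart for EEF1G (replicate 3, 1435.09 TPM), EEF2 (ENSDARG00000035256, replicate 2, 54.71 TPM) and eif4a1a (replicate 2, 362.41 TPM), and the lowest mutant for TARS1 (replicate 1, 75.75 TPM). Of those that were not called, EEF1B2 alone passed the test when the library that stood apart was left out (limma adjusted p = 0.000998).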

How the results depend on the processing

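Of 27 called members, all kept their call with pseudocounts of 0.1 and 5 and among genes of at least 5 TPM. With rescaling by median of ratios 24 kept it, with rescaling without mitochondrial and the 50 most abundant genes 22, with no filter on low values 22, with no mean-variance trend 18, and with each library left out in turn between 22 and 25. The 2 rescalings gave 8 and 10 members higher, 5 and 7 initiation factors higher and 2 and 2 synthetases higher, and the second gave 3 elongation factors lower. With no trend there were 3 members and 1 initiation factor higher and 2 elongation factors lower, and with no filter 3 elongation factors lower. Without identifiers that share a symbol, where 78 members were tested, 3 members and 1 initiation factor were higher. Leaving out each library gave 3 to 6 members higher and 17 to 23 lower, 1 to 4 initiation factors higher, and 3 to 5 elongation factors lower. The cause of these shifts was not tested. No named member changed direction with a call.

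Same-numbered libraries did not deviate together (correlations of -0.10 to -0.03). No pairing by number was thus seen, though a check on 4 libraries per group cannot exclude it. With the replicate block 4 members were higher and 16 lower, against 5 and 22 without it, and 19 of the 27 calls were kept. The calls of eef1da, eef2b, eif4ebp1, EIF2A, EIF2B1, EIF3H, EIF4G2 and LARS1 were lost at adjusted p-values of 0.0507 to 0.0941, and eif4e1c gained a higher call (0.0403). Over all genes 2932 were called with the block and 3745 without it. The unknown depth limits every value of a few TPM.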
